A study of Mus musculus with 10 samples.

Results

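The amino acid transporter genes described here are the 64 mouse genes whose symbol on the array platform begins with Slc1a, Slc3a, Slc6a, Slc7a, Slc36a, Slc38a or Slc43a. They were chosen by name alone, out of 19937 genes that had a feature (a set of probes read as a single value) of their own on the array. The name takes in carriers of monoamines, taurine, creatine and nucleobases as well as of amino acids, and it takes in 2 genes, Slc6a19os and Slc7a6os, that lie opposite a transporter gene and are not transporters. RNA was measured in bone marrow-derived macrophages (BMDMs), cells grown out of mouse marrow in MCSF, the growth factor on which macrophages depend. The 5 WT arrays came from normal mice and the 5 Rac2-/- arrays from mice lacking both copies of Rac2, a small GTPase of blood cells that relays signals from integrins and the MCSF receptor to the cytoskeleton. All 10 arrays were of male C57BL mice, of an age not given in the sources used here, and the methods name normal littermates and a C57BL/6J background. Every culture had 20% FBS and 50 ng/ml MCSF for 7 days at 16% oxygen, with RNA taken on day 8 from cells at least 80% positive for Mac1, and no other treatment was given. The design names 5 mice per genotype, but the labels do not tie arrays to mice, so the p-values rest on the spread among arrays, which may be technical in part.

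Amino acid carriers set which amino acids enter a macrophage and leave it, and in exchange for what. The light chains of the Slc7 family reach the membrane only when bound to a heavy chain of the Slc3 family and trade amino acids across it. The Slc1, Slc6 and Slc38 carriers mostly draw on the sodium gradient. Some Slc36 carriers run on protons and some sit on lysosomes, and Slc43 carriers let large neutral amino acids pass down their gradient. In macrophages these carriers are best known for bringing in arginine for nitric oxide and arginase, cystine for glutathione, and leucine and glutamine for growth signalling through mTORC1.

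The labels held in every array, since the log2 level of Rac2 was 11.81 to 12.42 in WT and 6.80 to 7.54 in Rac2-/- BMDMs (difference 5.00, SE 0.17, adjusted p = 7.7e-07). All levels are log2 values made with the RMA method, and a difference of 1 is a 2-fold change. In both genotypes arrays 1 and 2 formed a set of their own beside arrays 3 to 5, with correlations of 0.973 to 0.996 within these sets and 0.934 to 0.955 between them, and the sources used here do not say what separates the sets. The mean of 10 macrophage markers was 11.79 to 12.03 in WT and 11.75 to 12.08 in Rac2-/- arrays. Of these markers 1 passed the test, toward Rac2-/-, and with the replicate number as a block 2 passed toward Rac2-/- and 1 toward WT. Marker lists of other cells also moved with the genotype in part. The mean of 7 mast cell and basophil markers was 5.79 to 6.41 in WT and 5.48 to 5.68 in Rac2-/- arrays, without overlap, and 6 of the 7 had a higher mean in WT, of which Hdc passed the test (difference 0.49, adjusted p = 0.0185). The mean of 5 erythroid and megakaryocyte markers was 6.64 to 6.95 in WT and 6.97 to 7.47 in Rac2-/- arrays, also without overlap, and of these Pf4 passed (difference -1.39, adjusted p = 0.00463). Of the 5, 4 had a higher mean in Rac2-/-, but their median difference was -0.07, far smaller than that of Pf4. The mean of 7 dendritic cell markers overlapped, while Itgax passed toward Rac2-/- (-1.95, adjusted p = 0.00424) and Ccr7 toward WT (0.91, adjusted p = 0.0141). Of 10 neutrophil markers 8 had a higher mean in WT, with a median difference of 0.27 and overlapping arrays, and 0 passed the test (0 at an unadjusted p under 0.05). The means for fibroblasts, B cells, T and NK cells and osteoclasts overlapped. The mean of 32 genes of S phase and mitosis was 6.92 to 7.35 in WT and at most 7.39 in 4 Rac2-/- arrays but 9.45 in Rac2-/- array 5. The part of these cells and of cycling in the transporter values was not tested. In RNA of a whole culture, fewer cells of a type and less RNA per cell cannot be told apart.

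Most amino acid transporter genes differed little between the genotypes. Of the 60 genes that passed the filter on low values, 45 lay within 0.2 of no difference on the log2 scale, a share close to the 74.2% of all 27000 features tested. Their median difference, WT minus Rac2-/-, was -0.03, against 0.00 for all features, with 25 genes on the WT side and 35 on the Rac2-/- side. Many of the 60 genes, among them much of the Slc6 family, read below the array medians of 6.07 to 6.14, where small differences are hard to detect. Slc1a2, Slc1a3, Slc7a2 and Slc43a1 were of this kind, with WT means of 5.77, 5.23, 5.43 and 5.59. In the limma test across all features, 0 of the 60 genes passed an adjusted p of 0.05, while 1.9% of all features did (1.11% higher in WT and 0.796% higher in Rac2-/-). At an unadjusted p under 0.05 there were 10 genes, beside 10.4% of all features. Of the 10, 5 were higher in WT, beside 5.3%, and 5 in Rac2-/-, beside 5.06%. A fit with a trended and robust variance also gave 0.

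The result changed when the replicate number was kept as a block, a fit that compares WT and Rac2-/- arrays of the same number and so sets aside the difference between the 2 sets of arrays. The values show the 2 sets but do not show that arrays of the same number belong together within a set. With the block 6 of the 60 genes passed, beside 6.36% of all features tested. Slc7a5 and Slc7a1 were higher in WT BMDMs, and Slc7a11, Slc36a4, Slc38a1 and Slc43a2 were higher in Rac2-/- BMDMs. By direction this was 2 genes beside 3.03% of all features and 4 genes beside 3.33%. A term for the sets gave 7 genes beside 9.35% of all features (3 beside 4.37% higher in WT, 4 beside 4.99% in Rac2-/-), array weights gave 6 beside 6.71% (3 beside 3.61%, 3 beside 3.09%), and ComBat, which removes a batch difference before the test, gave 13 beside 16.2% (6 beside 7.53%, 7 beside 8.71%). Slc7a5 passed in all 5 fits with the block that left out a number, with an adjusted p of at most 0.0345. Slc7a11 passed in 4 of the 5 and missed without number 3 (adjusted p = 0.0509). Slc36a4 and Slc7a1 passed in 1 of the 5, without number 1, and Slc38a1 and Slc43a2 in 0, with adjusted p-values of up to 0.0930, 0.104, 0.134 and 0.141 for these 4 genes. The share of all features called moved as well, to 7.21, 2.58, 1.05, 1.12 and 4.14% without numbers 1 to 5.

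**Figure D1:**
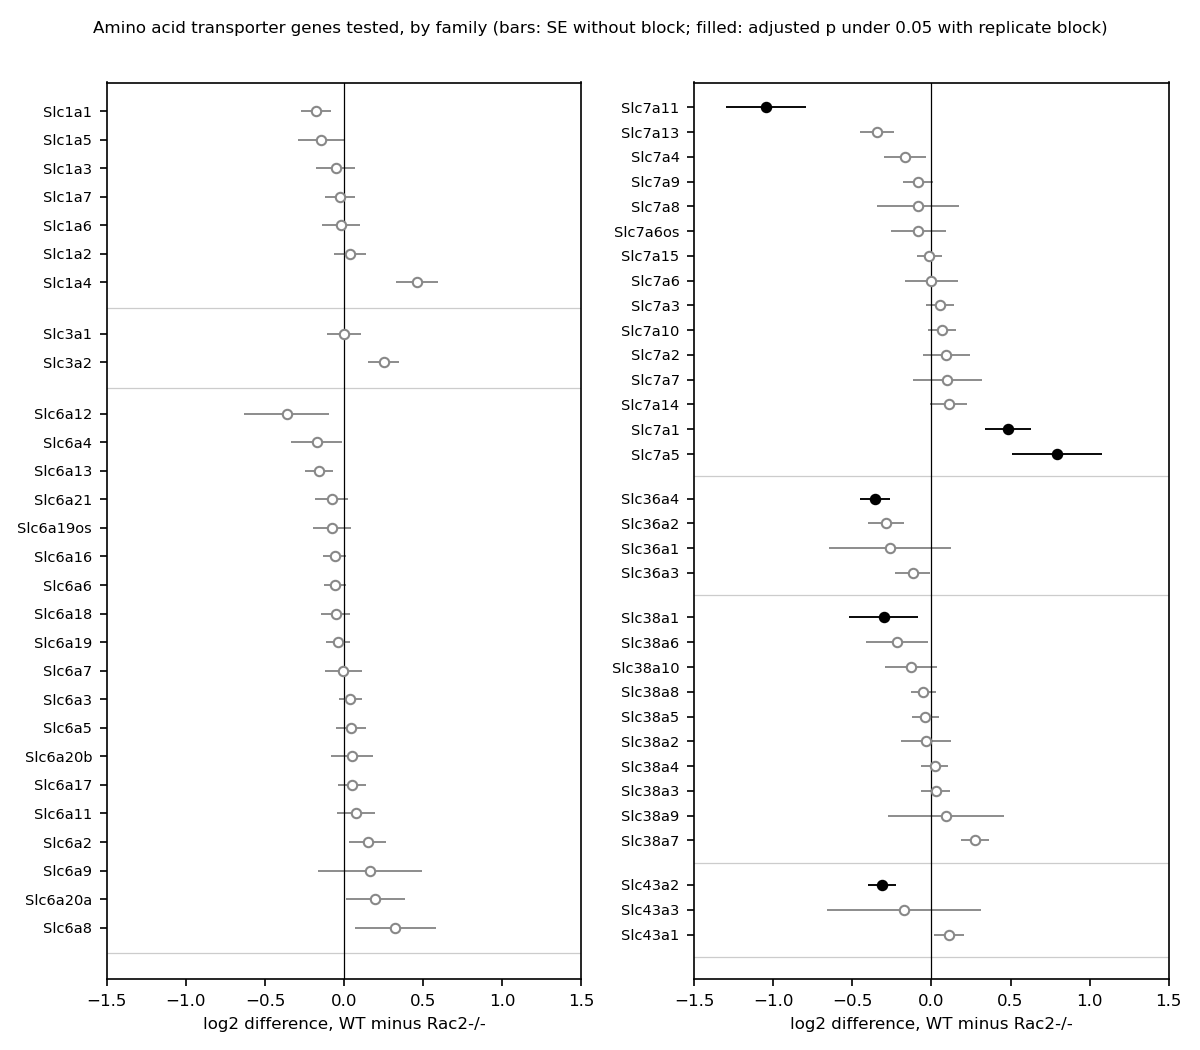
The 60 amino acid transporter genes tested, by family, with the log2 difference WT minus Rac2-/- on the x axis, bars for the standard error without a block, and filled points for the 6 genes with an adjusted p under 0.05 with the replicate block. Most points lie within 0.2 of zero, Slc7a11 lies farthest to the Rac2-/- side at -1.04 and Slc7a5 farthest to the WT side at 0.79.

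By family, the medians of the difference were -0.02 for the 7 Slc1 genes, 0.13 for the 2 Slc3 genes, -0.01 for the 19 Slc6 genes tested, -0.00 for the 15 Slc7 genes tested, -0.27 for the 4 Slc36 genes, -0.04 for the 10 Slc38 genes tested and -0.18 for the 3 Slc43 genes. The Slc7 family held 3 of the 6 genes that passed with the block and had both the largest difference toward WT and the largest toward Rac2-/-. All 4 Slc36 genes had a higher mean in Rac2-/- BMDMs, but Slc36a2 and Slc36a3 read below the array medians (WT means 5.78 and 5.47). No difference between families was tested. The filter left out Slc6a14, Slc6a15, Slc7a12 and Slc38a11.

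Slc7a11 encodes xCT, the light chain that imports cystine and exports glutamate, and it feeds glutathione synthesis. Its log2 levels were 7.77, 7.77, 8.33, 8.37 and 8.28 in WT arrays 1 to 5 and 8.30, 8.95, 9.44, 9.38 and 9.67 in Rac2-/- arrays 1 to 5. The lowest Rac2-/- array, number 1, lay inside the WT range, and the other 4 lay above every WT array. WT BMDMs had a mean of 8.10 ± 0.31 (SD, n = 5) and Rac2-/- BMDMs one of 9.15 ± 0.54 (SD, n = 5), 2.06-fold higher in Rac2-/- (difference -1.04, SE 0.25, 95% confidence interval -1.61 to -0.48). The adjusted p was 0.0793 without the block and 0.00751 with it. Without Rac2-/- array 1 the gene passed also in the unblocked fit (adjusted p = 0.0111). The difference was -0.86 within arrays 1 and 2 and -1.17 within arrays 3 to 5, where it passed on its own (adjusted p = 0.00306).

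The promoter of Slc7a11 is shown because it holds a motif that is also found before Asns and Chac1, genes of the amino acid response. Asns passed with the block in the opposite direction, toward WT, and Chac1 passed in neither fit. The 250 bases before the start of each gene were read from RefSeq (GRCm38.p6) and are printed 5′ to 3′ on the gene's own strand, with matches to the ATF4 response element TGATGNAA, or to its reverse complement, in capitals. For Slc7a11 the stretch is chr3:50443614-50443863 on the minus strand. Beside it stand Asns, asparagine synthetase (chr6:7693210-7693459, minus strand), and Chac1, a glutathione-degrading enzyme (chr2:119350992-119351241, plus strand).
Slc7a11: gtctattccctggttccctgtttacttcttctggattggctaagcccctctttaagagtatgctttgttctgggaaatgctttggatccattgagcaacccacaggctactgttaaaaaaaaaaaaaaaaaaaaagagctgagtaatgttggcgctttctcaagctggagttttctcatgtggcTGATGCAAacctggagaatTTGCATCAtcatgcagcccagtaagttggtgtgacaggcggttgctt
Asns: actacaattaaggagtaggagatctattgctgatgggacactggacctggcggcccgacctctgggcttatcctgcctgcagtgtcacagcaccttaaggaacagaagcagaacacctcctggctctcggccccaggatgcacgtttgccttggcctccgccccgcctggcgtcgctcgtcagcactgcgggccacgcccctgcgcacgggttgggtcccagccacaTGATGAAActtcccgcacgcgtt
Chac1: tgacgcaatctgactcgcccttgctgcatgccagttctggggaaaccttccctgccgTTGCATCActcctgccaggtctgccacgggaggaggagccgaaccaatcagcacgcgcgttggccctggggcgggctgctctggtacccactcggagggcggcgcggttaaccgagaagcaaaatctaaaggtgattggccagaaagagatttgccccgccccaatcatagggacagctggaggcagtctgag
In Slc7a11 the pair of matches lay 66 to 59 and 47 to 40 bases before the start, the first on the gene's strand and the second on the opposite strand. In Asns the match lay 23 to 16 bases before the start, and in Chac1 193 to 186 bases before it on the opposite strand. Of all 32851 promoters read over the same length, 3.45% held the motif on either strand. Of the 64 transporter genes 47 had a promoter in the set, 68 promoters in all, and 4 of these promoters, of Slc7a11, Slc7a7 and Slc6a21, held it. Slc7a5 and Slc38a1, which passed with the block, had no promoter in the set and were not searched for either motif. Of 25 genes of the amino acid response with a promoter, 6 did. The antioxidant response element TGACNNNGC was held by 10.2% of all promoters and by those of 8 of the 47 transporter genes searched, Slc7a1, Slc7a6, Slc6a9, Slc6a11, Slc6a13, Slc6a16, Slc38a2 and Slc43a1. Of 12 genes of cystine use, glutathione and the antioxidant factor NRF2 with a promoter, 5 held this element and 1 held the ATF4 response element. Of the 25 genes of the amino acid response, 3 held the antioxidant response element. It was not among these letters in the Slc7a11 stretch. These matches describe the sequence and do not show that a factor bound there.

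Slc7a5 encodes LAT1, the light chain that exchanges glutamine for leucine and other large neutral amino acids. Its log2 levels were 7.52, 7.91, 8.50, 8.58 and 8.90 in WT arrays 1 to 5 and 6.91, 7.12, 7.71, 7.81 and 7.88 in Rac2-/- arrays 1 to 5. Over all arrays the groups overlapped, since arrays 1 and 2 were low in both genotypes, but within arrays 1 and 2 and within arrays 3 to 5 every WT array lay above every Rac2-/- array. WT BMDMs had a mean of 8.28 ± 0.56 (SD, n = 5) and Rac2-/- BMDMs one of 7.49 ± 0.44 (SD, n = 5), 1.73-fold higher in WT (difference 0.79, SE 0.29, 95% confidence interval 0.16 to 1.43). The adjusted p was 0.289 without the block and 0.00407 with it. The difference was 0.70 within arrays 1 and 2 and 0.86 within arrays 3 to 5, where it passed on its own (adjusted p = 0.0138), and arrays of the same number differed by 0.61 to 1.02.

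Slc3a2 encodes CD98hc, the heavy chain that carries both LAT1 and xCT, and it also binds integrins. It was measured at 12.02, 12.26, 12.33, 12.30 and 12.41 in WT and at 11.95, 11.89, 12.18, 12.12 and 11.94 in Rac2-/- arrays. WT was higher in each of the 5 numbers but the groups overlapped, and the difference of 0.25 (SE 0.10, 95% confidence interval 0.04 to 0.46) did not pass (adjusted p = 0.338, and 0.120 with the block). So the 2 light chains that passed differed in opposite directions, while their shared heavy chain had a difference of 0.25 that did not pass without the block or with it. Of the other fits, Slc3a2 passed with ComBat (adjusted p = 0.0143) and missed with the term for the sets (adjusted p = 0.0527).

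The other light chains did not pass with the block or without it. Slc7a8, or LAT2, carries neutral amino acids and had a difference of -0.08 (95% confidence interval -0.66 to 0.50). Slc7a6 and Slc7a7, or y+LAT2 and y+LAT1, trade cationic for neutral amino acids and had differences of -0.00 (-0.37 to 0.37) and 0.10 (-0.38 to 0.58). Slc7a13, a light chain best known from kidney, had log2 levels of 4.54 to 4.75 in WT and 4.77 to 5.33 in Rac2-/- arrays. Its groups did not overlap, but the difference of -0.35 (SE 0.11) did not pass (adjusted p = 0.183, and 0.124 with the block). It passed with ComBat (adjusted p = 0.0239), and its values lay near the lower limit of the filter at 4.73.

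**Figure D2:**
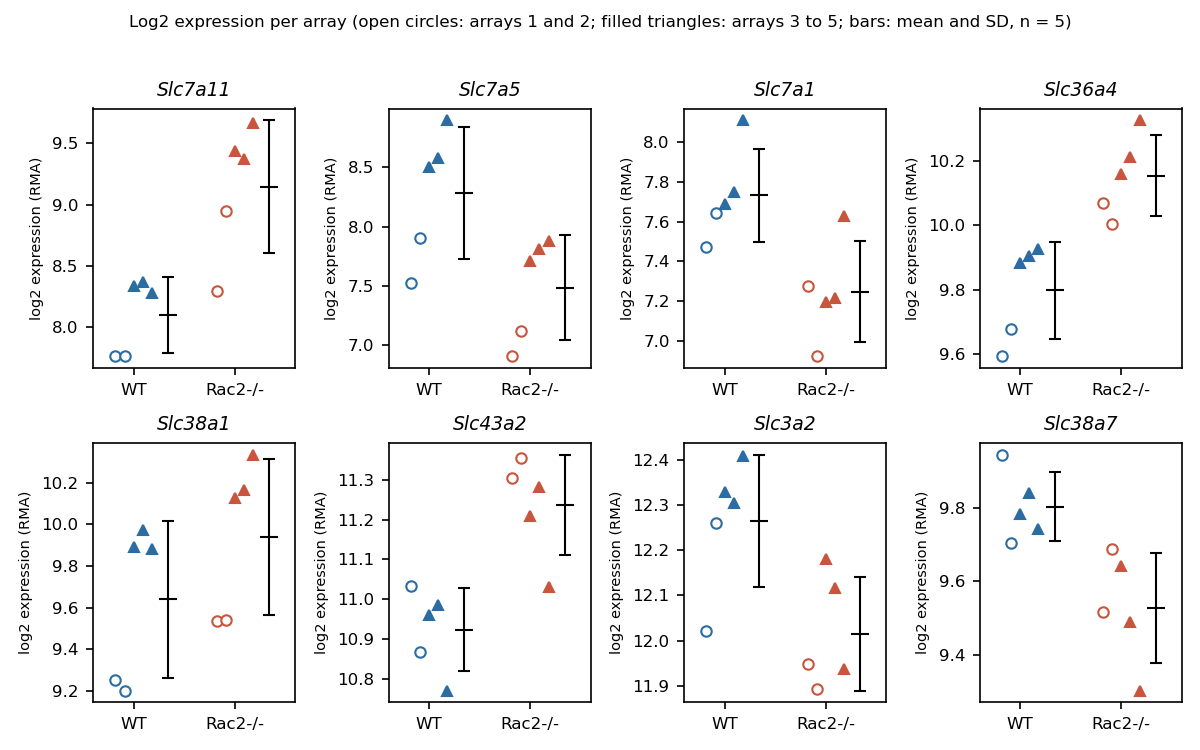
Log2 expression of 8 transporter genes in each of the 5 WT and 5 Rac2-/- arrays, with open circles for arrays 1 and 2, filled triangles for arrays 3 to 5, and bars for the mean and SD of each group. For Slc7a5 and Slc38a1 the 2 sets of arrays lie farther apart than the genotypes, whereas for Slc36a4 and Slc38a7 the 5 arrays of a genotype do not overlap those of the other.

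Slc7a1 encodes CAT1, the widely expressed importer of arginine and lysine. Its log2 levels were 7.47, 7.64, 7.69, 7.75 and 8.11 in WT and 7.28, 6.92, 7.20, 7.22 and 7.63 in Rac2-/- arrays 1 to 5. The highest Rac2-/- array, number 5, lay inside the WT range, and the other 4 lay below every WT array. The mean of 7.73 ± 0.23 (SD, n = 5) in WT was 1.40-fold that of 7.25 ± 0.25 (SD, n = 5) in Rac2-/- BMDMs (difference 0.48, SE 0.15, 95% confidence interval 0.16 to 0.81). The adjusted p was 0.181 without the block and 0.0233 with it. Slc7a2, or CAT2, the arginine carrier known to be induced with nitric oxide synthase in activated macrophages, differed by 0.10 (95% confidence interval -0.23 to 0.42), with number 5 at -0.52 and the other numbers at 0.17 to 0.37. Nos2, that synthase, was higher in WT by 1.61 (SE 0.15, adjusted p = 0.000703).

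Among the Slc36 carriers and the other carriers known from lysosomes, the genotypes did not overlap for Slc36a4, higher in Rac2-/-, and Slc38a7, higher in WT. All 5 arrays of a genotype lay above all 5 of the other for 3 of the 60 genes, Slc36a4, Slc7a13 and Slc38a7, beside 4.52% of all features tested. WT lay above in 1 of them, beside 2.34%, and Rac2-/- in 2, beside 2.18%. Slc36a4 encodes PAT4, a high-affinity carrier of proline and tryptophan linked to mTORC1. Its log2 levels were 9.59, 9.68, 9.88, 9.91 and 9.93 in WT and 10.07, 10.003, 10.16, 10.21 and 10.33 in Rac2-/- arrays. The WT mean was 9.80 ± 0.15 (SD, n = 5), and that of Rac2-/- BMDMs was 1.28-fold higher at 10.15 ± 0.13 (SD, n = 5), a difference of -0.36 (SE 0.10, 95% confidence interval -0.57 to -0.14). The adjusted p was 0.122 without the block and 0.0212 with it.

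Slc38a7 encodes SNAT7, which exports glutamine from lysosomes. It read 9.94, 9.70, 9.78, 9.84 and 9.74 in WT and 9.52, 9.69, 9.64, 9.49 and 9.30 in Rac2-/- arrays, and WT array 2 and Rac2-/- array 2 lay next to each other. The difference of 0.28 (SE 0.09, 95% confidence interval 0.07 to 0.48) did not pass in the fits without and with the block (adjusted p = 0.229 and 0.113). It passed with array weights and with ComBat (adjusted p = 0.0191 with ComBat). Slc36a1, or PAT1, the proton-coupled exporter of small amino acids, read 8.88, 8.56, 10.10, 10.07 and 9.91 in WT and 9.01, 9.14, 10.17, 10.24 and 10.29 in Rac2-/- arrays. The range within a genotype came from arrays 1 and 2, which were low in both. Rac2-/- was higher in each of the 5 numbers by 0.07 to 0.57, and the mean difference of -0.26 did not pass (adjusted p = 0.999, and 0.149 with the block), but passed with ComBat (adjusted p = 0.0228). Slc36a2 was higher in Rac2-/- in each number too (difference -0.29, adjusted p = 0.382, 0.0530 with the block and 0.0362 with ComBat). Its means of 5.78 in WT and 6.06 in Rac2-/- BMDMs lay below the array medians. Slc36a1, Slc36a2 and Slc36a3 are neighbours on chromosome 11. Slc38a9, the lysosomal arginine sensor of mTORC1, differed by 0.09 (95% confidence interval -0.73 to 0.91) and by 0.01 on its other feature.

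Among the glutamine carriers of the plasma membrane, Slc38a1 passed with the block and Slc38a2 and Slc1a5 did not. Slc38a1 encodes SNAT1, a sodium-coupled importer of glutamine, and the study named it from these same arrays. On the feature with the higher mean its log2 levels were 9.25, 9.20, 9.89, 9.97 and 9.88 in WT and 9.54, 9.54, 10.12, 10.16 and 10.33 in Rac2-/- arrays. The groups overlapped because arrays 1 and 2 were low in both genotypes, and in each of the 5 numbers Rac2-/- was higher, by 0.19 to 0.45. The difference was -0.30 (SE 0.22, 95% confidence interval -0.79 to 0.18), which is 1.23-fold higher in Rac2-/-, with an adjusted p of 0.836 without the block and 0.0410 with it. The second feature of the gene read 8.10, 8.20, 7.60, 7.55 and 7.56 in WT and 8.77, 8.65, 8.07, 8.00 and 8.16 in Rac2-/- arrays. Its direction between genotypes was the same (difference -0.53, adjusted p = 0.313, and 0.00828 with the block), whereas arrays 1 and 2 lay above arrays 3 to 5 on this feature and below them on the first. With the mean of both features, in which the sets of arrays drew together, Slc38a1 passed without the block (difference -0.42, adjusted p = 0.0104).

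Slc38a2, or SNAT2, the carrier that cells raise when amino acids run short, differed by -0.04 (95% confidence interval -0.39 to 0.32). Slc38a1, Slc38a2 and Slc38a4 follow each other on chromosome 15, the chromosome of Rac2, with 220 to 222 protein-coding genes between them and Rac2. Slc1a5, or ASCT2, a main importer of glutamine, read 8.63 to 8.75 in WT and 8.96, 8.62, 8.60, 8.63 and 9.37 in Rac2-/- arrays (difference -0.15, adjusted p = 0.948, and 0.556 with the block). Its highest value was that of Rac2-/- array 5, the array with the high genes of S phase and mitosis.

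The Slc43 family holds carriers of branched-chain and aromatic amino acids, and of these Slc43a2, or LAT4, passed with the block. It read 11.03, 10.87, 10.96, 10.99 and 10.77 in WT and 11.30, 11.36, 11.21, 11.28 and 11.03 in Rac2-/- arrays, so that WT array 1 and Rac2-/- array 5 met at 11.03. The WT mean was 10.92 ± 0.11 (SD, n = 5), and the Rac2-/- mean was 1.24-fold higher at 11.24 ± 0.13 (SD, n = 5). The difference of -0.31 (SE 0.09, 95% confidence interval -0.51 to -0.12) had an adjusted p of 0.132 without the block and 0.0366 with it. Slc43a1, or LAT3, differed by 0.11 (95% confidence interval -0.10 to 0.33) and did not pass. Slc43a3, a carrier of purine nucleobases, read 7.84 to 8.96 in Rac2-/- arrays 1 to 4 and 10.56 in array 5, beside 7.86 to 9.11 in WT arrays, and the difference did not pass (adjusted p = 0.999, and 0.760 with the block). The part of cycling in these values of array 5 was not tested.

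The glutamate and neutral amino acid carriers of the Slc1 family did not pass in either fit, and Slc1a4 alone had an unadjusted p under 0.05. Slc1a4, or ASCT1, an exchanger of alanine, serine and cysteine, read 6.23, 6.37, 6.33, 6.17 and 6.45 in WT and 5.69, 5.66, 6.05, 6.24 and 5.60 in Rac2-/- arrays. WT was higher in 4 of the 5 numbers, and array 4 of Rac2-/- lay inside the WT range. The difference of 0.46 (SE 0.13, 95% confidence interval 0.17 to 0.75) had an adjusted p of 0.149, and of 0.105 with the block, and it passed only where the sets of arrays were a term of the fit (adjusted p = 0.0419) or were removed with ComBat. Slc1a2 and Slc1a3, the GLT-1 and GLAST glutamate carriers of glia, differed by 0.04 (95% confidence interval -0.19 to 0.26) and -0.05 (-0.33 to 0.23).

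Of the Slc6 family, which carries neurotransmitters, taurine, creatine and glycine, 0 of 19 genes passed in either limma fit, 0 had an unadjusted p under 0.05 without the block, and Slc6a8 alone passed with ComBat. The widest differences were those of Slc6a12, a carrier of betaine and GABA, at -0.36 (95% confidence interval -0.96 to 0.24) and of Slc6a8, the creatine carrier, at 0.32 (-0.25 to 0.89). Slc6a12 was higher in WT in number 1, by 0.38, and higher in Rac2-/- in the other 4, by 0.18 to 0.99. Slc6a8 was higher in WT in 4 of 5 numbers, by 0.28 to 0.60. Its adjusted p was 0.877, and 0.111 with the block. Slc6a6, the taurine carrier, had means close to each other in the genotypes, 12.01 ± 0.06 (SD, n = 5) for WT and 12.07 ± 0.07 (SD, n = 5) for Rac2-/- BMDMs (difference -0.06, 95% confidence interval -0.21 to 0.09).

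**Figure D3:**
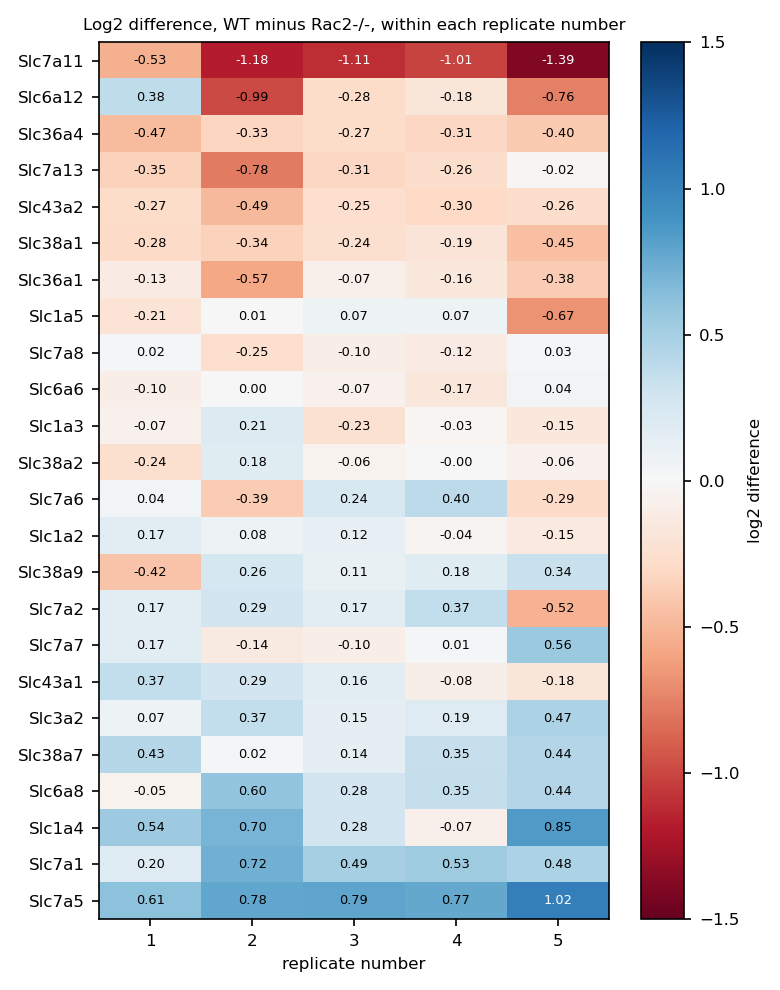
Log2 difference WT minus Rac2-/- of 24 transporter genes (rows) within each of the 5 replicate numbers (columns), with red for higher in Rac2-/- and blue for higher in WT. Slc7a11 is red in all 5 columns and Slc7a5 blue in all 5, while Slc6a12, Slc7a6 and Slc7a2 hold both colours.

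The direction was the same in all 5 numbers for 14 of the 60 genes, beside 22% of all features tested. Higher in WT each time were Slc7a5, Slc7a1, Slc3a2 and Slc38a7, beside 10.1% of all features. Higher in Rac2-/- each time were Slc7a11, Slc36a4, Slc43a2, Slc38a1, Slc7a13, Slc36a1, Slc36a2, Slc38a6, Slc7a4 and Slc6a13, beside 12% of all features. The difference between the sets of arrays was larger than that between genotypes for several genes. In 13 of the 60 genes arrays 1 and 2 lay at least 0.5 below arrays 3 to 5, and in 1 gene, Slc7a6os, at least 0.5 above, which is 23.3% of the genes beside 27.3% of all features. The widest were Slc43a3 at -1.26, Slc36a1 at -1.23, Slc38a9 at -1.14 and Slc6a9 at -1.01. Slc7a5, Slc7a11 and Slc38a1 were among the 13.

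The genes around amino acid transport were read from lists of related carriers, enzymes and sensors, and 8 genes of them passed without the block. Of all features tested, 1.9% passed without the block (1.11% toward WT, 0.796% toward Rac2-/-) and 6.36% with it (3.03% and 3.33%). The counts of the lists below stand beside these shares. The amino acid response is a program in which the factor ATF4 raises carriers and biosynthetic enzymes when amino acids run short. Of its 27 genes, 1 passed toward WT and 1 toward Rac2-/-, and with the block 6 and 1, with a median difference of 0.02. A higher mean was found in WT for 15 of the 27 and in Rac2-/- for 12. The mean of the 27 genes was 8.02 to 8.26 in WT and 7.85 to 7.95 in Rac2-/- arrays, without overlap. Mthfd2, a mitochondrial folate enzyme, was higher in WT by 0.78 (SE 0.13, adjusted p = 0.0155), and Eif2ak3, the PERK kinase that senses protein misfolding, was higher in Rac2-/- (difference -0.57, SE 0.11, adjusted p = 0.0316). With the block Asns, Ddit3, Trib3, Atf4 and Phgdh also passed, all toward WT. Asns averaged 9.82 ± 0.67 (SD, n = 5) for WT and 8.59 ± 0.16 (SD, n = 5) for Rac2-/- BMDMs (difference 1.23, adjusted p = 0.0600, and 0.0398 with the block), and all 5 WT arrays lay above all 5 Rac2-/- arrays. Atf4 itself differed by 0.56 (adjusted p = 0.171, and 0.0200 with the block). Chac1 was higher in WT by 0.59 but did not pass (adjusted p = 0.164, and 0.125 with the block). Slc7a5 and Slc7a1 lay on the WT side, as did 15 of the 27 genes. Slc7a11 lay on the Rac2-/- side, as did 12 of the 27, among them Eif2ak3.

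**Figure D4:**
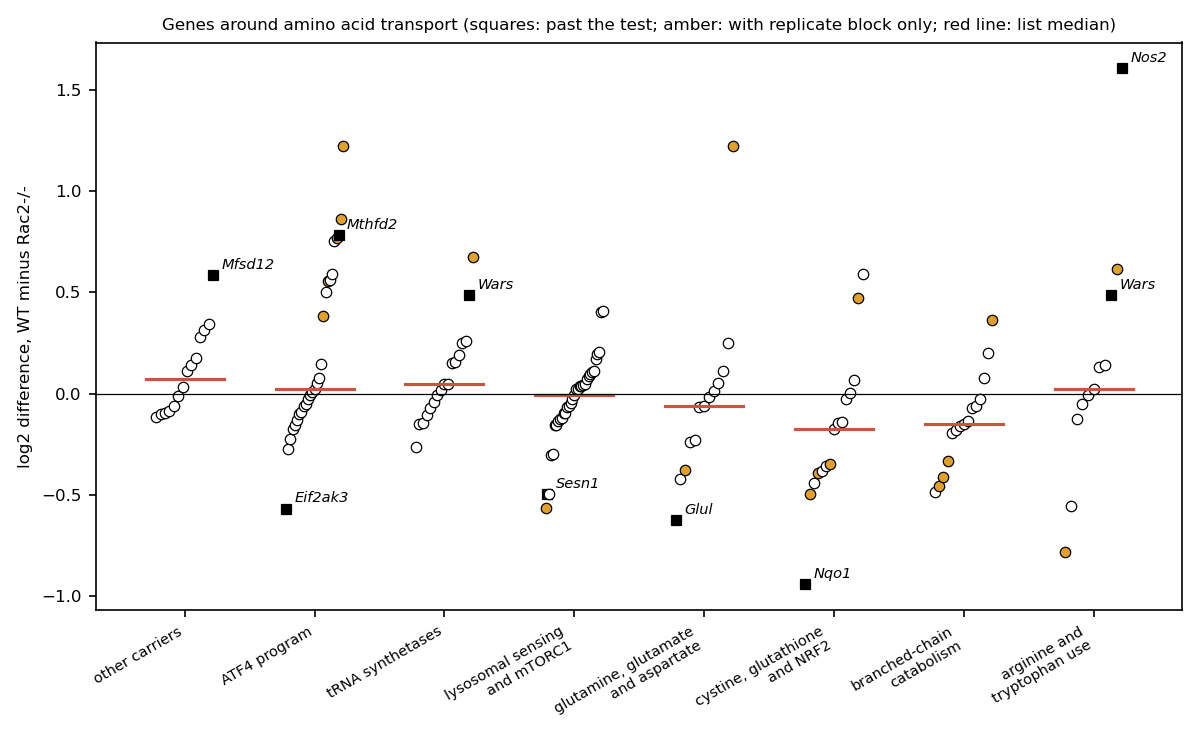
Log2 difference WT minus Rac2-/- of each gene tested in 8 lists around amino acid transport, with black squares for genes past the limma test, amber for genes past it with the replicate block alone, and a red line at each list's median. The medians lie between -0.18 for cystine, glutathione and NRF2 targets and 0.07 for other carriers.

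Genes of cystine use, glutathione and the antioxidant factor NRF2 lay mostly on the Rac2-/- side, as Slc7a11 did. Of 15 tested, 11 had a higher mean in Rac2-/- BMDMs, with a median of -0.18. Nqo1, a quinone reductase, passed (difference -0.94, SE 0.20, adjusted p = 0.0486). With the block Gclm, a subunit of the enzyme that limits glutathione synthesis (-0.50), Txnrd1, thioredoxin reductase (-0.39), and Hmox1, heme oxygenase (-0.35), also passed, and Keap1, which holds NRF2 in check, passed toward WT (0.47). Nfe2l2, which encodes NRF2, differed by 0.07 (adjusted p = 0.999, and 0.564 with the block). The lean toward Rac2-/- was not particular to this list. A higher mean in Rac2-/- was also found for 12 of 15 genes of branched-chain breakdown (median -0.15). The same held for 28 of 32 genes of S phase and mitosis (median -0.52), but there Rac2-/- array 5 stood apart. The mean of these 32 genes was 9.45 in Rac2-/- array 5, at most 7.39 in the other Rac2-/- arrays and 6.92 to 7.35 in WT.

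Of 13 enzymes of glutamine, glutamate and aspartate, Glul, which makes glutamine, passed toward Rac2-/- (difference -0.63, SE 0.12, adjusted p = 0.0287). With the block Oat, ornithine aminotransferase, passed in the same direction and Asns in the other. Of 33 genes of lysosomal amino acid sensing and mTORC1, with a median of -0.01, Sesn1, a sestrin that holds mTORC1 down, passed toward Rac2-/- (difference -0.50, SE 0.06, adjusted p = 0.00361), and with the block Sesn3 did as well. Of 17 cytosolic tRNA synthetases, Wars, which charges tryptophan and is induced by interferon, passed toward WT (difference 0.49, SE 0.09, adjusted p = 0.0201), and with the block Cars, which charges cysteine, did too. Of 15 enzymes of branched-chain breakdown 0 passed without the block (3 had an unadjusted p under 0.05), and with the block 3 passed toward Rac2-/- and 1 toward WT. Those with the smallest p were Bcat2, the mitochondrial transaminase (-0.33, adjusted p = 0.113), and Bckdhb (-0.49, adjusted p = 0.150). Of 11 genes of arginine and tryptophan use, Nos2 and Wars passed toward WT, and with the block Odc1 toward WT and Kmo toward Rac2-/-. Of 14 other amino acid and peptide carriers, Mfsd12, a lysosomal carrier known for cysteine import into lysosomes and melanosomes, passed toward WT (difference 0.59, SE 0.08, adjusted p = 0.00514), at 11.30 to 11.48 in WT and 10.60 to 10.87 in Rac2-/- arrays. Of 32 genes of S phase and mitosis 0 passed in either fit and 2 had an unadjusted p under 0.05, Tk1 and Rrm1 (-0.72 and -0.69, adjusted p = 0.289 and 0.466).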

How the data were processed

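RNA of 5 WT and 5 Rac2-/- BMDM samples was put on whole-transcript Affymetrix mouse arrays, and the sample labels gave groups and numbers. The authors deposited log2 values from RMA, a method of background correction, quantile normalization and probe summary for each feature. RMA also stands in the submitters' processing notes, with no version given in the sources used here. That the base is 2 was judged from the values themselves, which ran from 1.69 to 13.7 (array medians 6.07 to 6.14). The number of arrays limits the precision. RMA folds are often smaller than those of other methods. The methods also name ComBat, without the batches, and arrays 1 and 2 still differed from arrays 3 to 5 in the values used here.

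Genes were named from the platform annotation, with symbols brought up to date through the annotation of GRCm38.p6. Of 34760 features, 21640 had a single symbol, 1321 several and 11799 none. A gene was read from the feature of its symbol alone with the highest mean. Differences were tested with limma 3.58.1 in R 4.3.3 (lmFit and eBayes, group means) with Benjamini-Hochberg adjustment over 27000 features, those whose fourth-highest value was highest (at least 4.73), a round number near the count the methods state, called at an adjusted p under 0.05. Scripts were tested on simulated data. Named with values were transporter genes past the test with or without the block, the 6 largest differences in each direction, a list of well-known carriers, the genes of each pathway list past the test (or the 2 with the smallest p) and Rac2. Other genes named were chosen after their values were seen. The transporter genes and all lists were chosen with earlier results of these data known.

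Same-numbered arrays deviated together from their group means, with correlations of 0.493 to 0.716 for every number, so arrays of the same number were treated as pairs. This comes from the values alone. Other numbers of the same set correlated at 0.476 to 0.724 and numbers of different sets at -0.717 to -0.515, and 5 of 10 arrays correlated best with their own number. No 2 arrays were identical. Alternatives were the replicate block, array weights, no filter, a variance both trended and robust, quantile normalization, median centring, the mean of a gene's features, a term for the 2 sets of arrays, ComBat on them (its parametric form, written in R), fits within each set, leaving out each array and, chosen after seeing the data, the block without each number. Promoter sequences and gene neighbours came from RefSeq (GRCm38.p6).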

Additional observations from a re-analysis of the deposited data

How the results depend on the processing

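The count of transporter genes past the test was 0 in the unblocked fit and stayed 0 with no filter, with a trended and robust variance, after quantile normalization and after median centring. The fit within arrays 1 and 2, with 2 arrays per group, called 0 of the genes but also only 0.00741% of all features, so its 0 says nothing about the transporters. The count was 6 with the replicate block (2 higher in WT, 4 in Rac2-/-), 6 with array weights (3 and 3), 7 with a term for the sets of arrays (3 and 4), 13 with ComBat on them (6 and 7), 2 within arrays 3 to 5 (1 and 1, Slc7a5 and Slc7a11, beside 5.51% of all features) and 1 with the mean of a gene's features (Slc38a1, in Rac2-/-, beside 1.87%). All 6 genes of the block also passed with the term and with ComBat, and 5 of them with array weights, where Slc38a7 passed in place of Slc38a1. Leaving out each array in turn gave 0 to 1 (0 to 0 in WT, 0 to 1 in Rac2-/-), the 1 being Slc7a11 without Rac2-/- array 1, beside 0.907% to 2.31% of all features. The block without each number gave 1 to 5 (1 to 3 in WT, 0 to 2 in Rac2-/-). Without number 1 it called 5, among them Slc6a8 (7.21% of all features), without number 3 Slc7a5 alone (1.05%), and without numbers 2, 4 or 5 the 2 genes Slc7a5 and Slc7a11 (2.58%, 1.12% and 4.14%). The share of all features called thus moved as well. Why the counts differ was not tested.

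The 6 genes called with the block kept their direction in every alternative run. Of the 24 genes named by the rule, for which every alternative was run, the direction turned for 9 that lay near zero and passed in no fit. Over all 60 genes tested, it turned for 11 within arrays 1 and 2 and for 9 within arrays 3 to 5. Slc7a6 (-0.00) was 0.179 with array weights, 0.0215 after quantile normalization, 0.00852 with ComBat and 0.114 within arrays 3 to 5. Slc1a2 (0.04) was -0.00759 with array weights and -0.0207 within arrays 3 to 5, and Slc43a1 (0.11) was -0.0339 there. Within arrays 1 and 2, Slc1a3 (-0.05) was 0.0704 and Slc38a9 (0.09) was -0.0831. With the block, Slc38a2 (-0.04) was 0.0151 without number 1, Slc7a7 (0.10) was -0.0123 without number 5, and Slc7a6 was 0.0953 without number 2 and 0.0712 without number 5. Over the fits that left out an array, the difference ran from -0.0262 to 0.0882 for Slc1a2, -0.149 to 0.0159 for Slc1a3, -0.132 to 0.0569 for Slc38a2, -0.106 to 0.323 for Slc38a9, -0.00134 to 0.1996 for Slc7a2, -0.0902 to 0.129 for Slc7a6, -0.0116 to 0.208 for Slc7a7 and -0.227 to 0.0509 for Slc7a8. A signal near the lower limit of the filter, as for Slc7a13, leaves small changes undetectable. The same limit bears on the many transporter genes that read below the array medians.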
